A study of Homo sapiens with 6 samples.

Results

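The genes described here are 10 genes of the cellular response to low oxygen, HIF1A, VEGFA, NDRG1, BNIP3, BNIP3L, EGLN1, EGLN3, ADM, ANKRD37 and P4HA1, chosen by name and found once each among the 62016 genes of every table. RNA was sequenced from Kasumi-1, an established line of human myeloblasts from acute myeloid leukemia that carries the AML1-ETO fusion of RUNX1 with RUNX1T1. The cells were grown in medium with fetal bovine serum and collected 4 days after infection with pLKO virus carrying a control hairpin or 1 of 2 hairpins against JMJD1C, shRNA63 and shRNA95, with 2 libraries for each of these 3 groups. A further table sets an AML1-ETO shRNA against its control in 1 library each, taken from another published series. JMJD1C is a JmjC-domain protein of the KDM3 demethylase family. The labels give neither the oxygen level of the cultures nor whether a group's libraries are separate cultures, so p-values here measure only library-to-library spread, possibly technical. All the cells are 1 line, and a short hairpin lowers its target without removing it.

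The response to low oxygen turns on HIF-1, a pair of HIF1A with its partner ARNT. While oxygen is present, the prolyl hydroxylases EGLN1, EGLN2 and EGLN3 mark the HIF1A protein, VHL binds the mark and the protein is destroyed. In low oxygen the protein escapes, enters the nucleus and binds a short core sequence, the hypoxia response element, near genes for vessel growth, glycolysis, mitochondrial clearance and collagen folding. Most control of HIF1A is exerted on the protein, which RNA sequencing does not see. Its targets are widely read as a record of its activity, and several of them, such as EGLN1, EGLN3 and KDM3A, are themselves enzymes that use oxygen.

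The core element was looked for in the promoters of the members, as the letters ACGTG and GCGTG on both strands. Windows of 300 bases from RefSeq (GRCh38.p14), 250 before and 50 after the gene start, were found for 7 of the 10 members, with none for VEGFA, NDRG1 and BNIP3L. At least 1 match was present in 6 of these 7, EGLN3 being without one, where 48.4% of all 35116 promoter windows hold a match. Those 35116 windows belong to 27305 gene symbols, so they include further windows of the same gene. HIF1A also has a window away from the gene start, with 0 matches, which was left out of the count of members. The palindrome CACGTG, which counts as a match of ACGTG on each strand, was present in BNIP3 and ANKRD37 and in 7.26% of all windows. BNIP3 had the most matches, 6 in 5 separate places, a number reached by 0.923% of all windows. The stretches of 80 bases below show how these matches are spaced in the 4 members with a match of ACGTG, 5′ to 3′ on the gene's strand, with the matched letters in capitals. They lie on GRCh38.p14 at chr10:131982005-131982084 (minus strand) for BNIP3, chr4:185396651-185396730 (plus strand) for ANKRD37, chr1:231422288-231422367 (minus strand) for EGLN1 and chr10:73096911-73096990 (minus strand) for P4HA1.
BNIP3: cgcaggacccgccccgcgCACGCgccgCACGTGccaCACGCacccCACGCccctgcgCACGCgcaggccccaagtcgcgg
ANKRD37: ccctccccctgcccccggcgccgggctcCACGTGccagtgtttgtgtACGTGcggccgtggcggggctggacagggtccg
EGLN1: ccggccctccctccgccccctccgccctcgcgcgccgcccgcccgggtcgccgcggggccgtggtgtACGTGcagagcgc
P4HA1: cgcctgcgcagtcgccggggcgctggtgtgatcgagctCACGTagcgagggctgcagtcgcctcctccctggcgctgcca

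In BNIP3 the last of the matches ended 100 bases before the start, and 4 of them read GCGTG on the strand opposite to the gene. In ANKRD37 the palindrome began 162 bases before the start and a further match of ACGTG ended 139 bases before it. EGLN1 had its match 13 bases before the start and P4HA1 had one 86 bases before it. HIF1A and ADM each had 1 match of GCGTG, 204 and 101 bases before the start. These matches describe the letters of the windows and say nothing about binding, and elements farther from the start were not looked for.

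**Figure D1:**
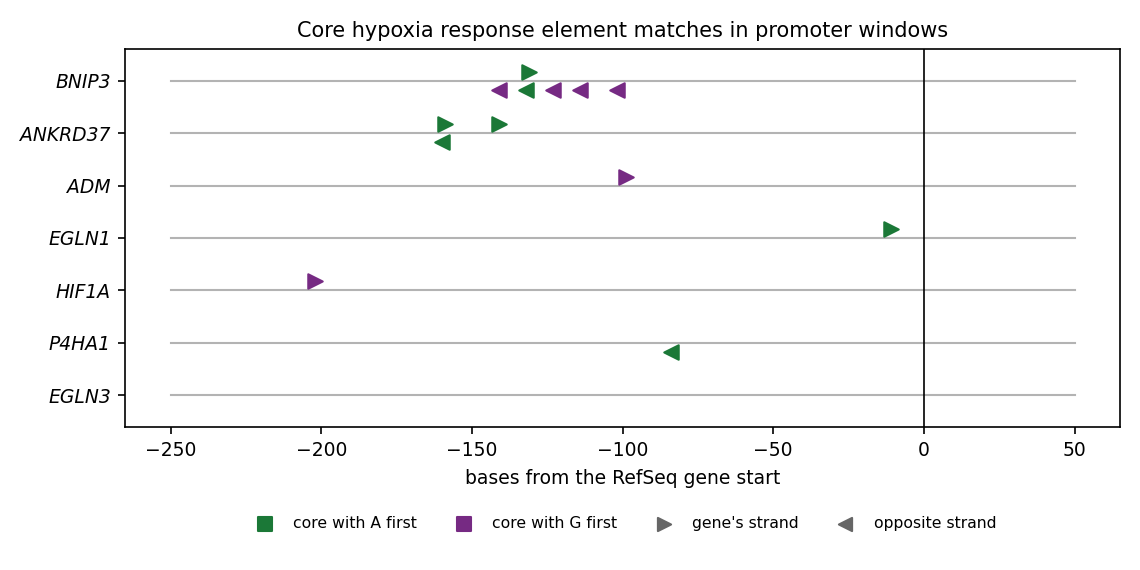
Matches of the core hypoxia response element in the promoter windows of the 7 members that have one, by distance in bases from the RefSeq gene start (line at 0). Triangles point right for the gene's strand and left for the opposite strand, and colours give the 2 forms of the core; BNIP3 holds 6 matches and EGLN3 none.

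The levels of the members in the control cells spanned a wide range. FPKM is the number of fragments per unit of transcript length and of sequencing depth, which allows levels of different genes to be set side by side, and each table holds 1 value per group that the authors made from its 2 libraries. In the control group of the authors' deposited shRNA63 table, HIF1A was highest with 68.6 FPKM. VEGFA, the vascular endothelial growth factor, followed with 64.6, BNIP3L, a mitophagy receptor of the outer mitochondrial membrane, with 47.5, EGLN1 with 46.5 and P4HA1, a catalytic subunit of the collagen prolyl hydroxylase, with 42.7 FPKM. These 5 genes lay between percentile 76.4 and percentile 84.8 of the 14475 measured genes, those tested by the authors with at least 1 FPKM in the higher group. BNIP3, the second mitophagy receptor, stood at 15.7 FPKM and NDRG1, a stress-induced cytoplasmic protein, at 5.57 FPKM. ANKRD37, a small ankyrin repeat protein, was near the limit of what was measured with 1.87 FPKM, and ADM, the vasodilator peptide adrenomedullin, lay below it with 0.0491 FPKM. EGLN3 was listed at 0. The order was the same in the control group of the shRNA95 table, which holds the same 2 libraries scaled anew. The tables give no value per library, so the spread of these levels is unknown and no neighbours in this order can be said to differ.

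A value of 0 in these tables is not always a measurement. TFRC, the transferrin receptor that growing cells use and itself a HIF target, was listed at 0 with the status FAIL in all 3 tables. MPO, a defining gene of myeloblasts, was listed at 0 with the status HIDATA. EGLN3 had the status NOTEST, and its locus is shared with 4 other genes, of which SPTSSA was at 1 FPKM or more. EGLN3 is therefore given only as listed at 0 with both hairpins.

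**Figure D2:**
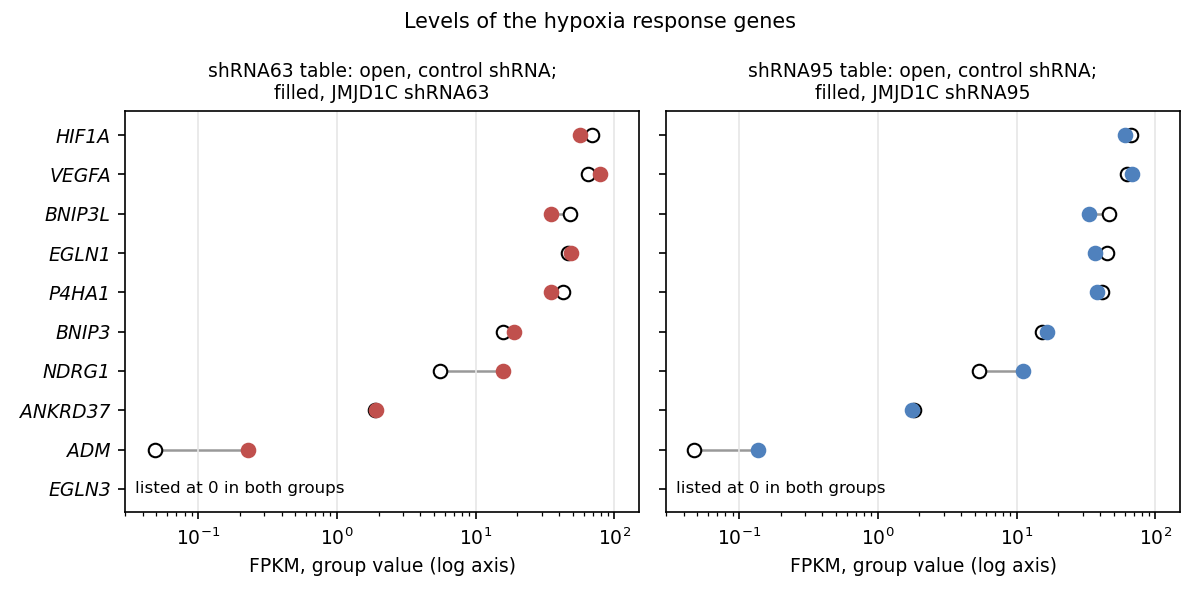
FPKM of the 10 members on a log axis, 1 value per group, in the shRNA63 table (left) and the shRNA95 table (right). Open circles are the control shRNA and filled circles the JMJD1C shRNA; NDRG1 moves from 5.57 to 15.8 with shRNA63, ADM lies under 0.3 throughout, and most other pairs nearly coincide.

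The targeted gene was checked first. JMJD1C fell with shRNA63, to 13.7 from 30.4 FPKM (log2 fold change -1.15), per the authors' deposited table (q = 0.00214), where q is their p-value adjusted over all tested genes. Its level was 25.1 against 29.4 FPKM in the libraries labelled shRNA95, per the authors' deposited table, with a log2 fold change of -0.23 and a 95% interval from -0.81 to 0.35 (q = 0.938). The shRNA95 label thus has no check from its target. Of 11 listed myeloblast markers 9 were at 1 FPKM or more in every group, CEBPA was below that and MPO was listed at 0. Their summed level was 15054 against 6209 FPKM with shRNA63 and 8581 against 6021 FPKM with shRNA95, per the authors' deposited tables. Most of that sum came from the granule protein genes PRTN3, ELANE and AZU1, and not all markers went the same way. With shRNA63 PRTN3, ELANE, AZU1, SPI1 and CD33 were called higher. The stem cell factor receptor KIT fell there to 133.8 from 245.2 FPKM per the authors' deposited table (q = 0.00214). With shRNA95 SPI1, ANPEP and AZU1 were called higher (q = 0.00216, 0.00216 and 0.00728 per the authors' deposited table). ELANE was at 1128 against 1109 FPKM and KIT at 166.0 against 237.6 FPKM with shRNA95, both without a call. CD34, a marker of immature cells, was at 103.2 against 150.7 FPKM with shRNA63 (q = 0.0743) and rose to 249.0 from 146.1 FPKM with shRNA95 (q = 0.00216), per the authors' deposited tables. The summed level of T and B lymphoid markers (9 genes, MS4A1 at 0) was 12.0 against 23.9 FPKM with shRNA63 and 13.7 against 23.2 FPKM with shRNA95, per the authors' deposited tables. Of these genes CD79A and CD3E were called lower with shRNA63 (q = 0.0185 and 0.0274 per the authors' deposited table). CD3E was under 1 FPKM there, at 0.122 against 0.470. CD3D was at 2.45 against 8.52 FPKM with shRNA63 and at 1.59 against 8.26 FPKM with shRNA95, without a call. With shRNA95 CD79A was at 2.11 against 2.26 FPKM and PAX5 at 2.03 against 1.36 FPKM, also without a call. The next 2 genes, of other blood lineages, were chosen after their values were seen. ITGA2B was called lower with shRNA63, at 0.914 against 2.29 FPKM (q = 0.0324), and was at 2.68 against 2.22 FPKM with shRNA95. KLF1 was called lower with shRNA95, at 1.03 against 1.84 FPKM (q = 0.0186), and was at 1.27 against 1.89 FPKM with shRNA63. ITGA2B with shRNA95 and KLF1 with shRNA63 had no call, per the authors' deposited tables. Of all tested genes, 2.83% were called lower with shRNA63 and 1.82% with shRNA95. Summed levels of stromal, epithelial and endothelial markers (9 genes, COL3A1 at 0) lay between 14.9 and 17.6 FPKM over all groups. Nearly all of this was the epithelial gene EPCAM, at 13.9 to 16.3 FPKM, and every other gene of the list was under 1 FPKM.

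With shRNA63, NDRG1 rose and was the only one of the 8 tested members to be called. A gene was called where the authors tested it and q was under 0.05, which held for 5.12% of all 18271 tested genes (2.29% higher and 2.83% lower). NDRG1 stood at 15.8 FPKM against 5.57 in the control, 2.84 times the control level per the authors' deposited table. Its log2 fold change was 1.505 with an error of 0.43 and a 95% interval from 0.66 to 2.35 per the authors' deposited table (q = 0.00214). Errors here are the size of the log2 fold change divided by the authors' test statistic. The change of NDRG1 was above that of 98.9% of the measured genes. In the same cells the summed level of myeloblast markers was higher, with KIT lower, and that of lymphoid markers was lower, as given above. Their part in this result was not tested. In bulk RNA, more cells of a type and more RNA per cell cannot be told apart.

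In the libraries labelled shRNA95, no member of the 8 tested was called, against 4.4% of all 18006 tested genes (2.59% higher and 1.82% lower) by the authors' Cuffdiff test. At an unadjusted p under 0.05 the count was 2 of 8, NDRG1 and BNIP3L, against 12.3% of all tested genes. With shRNA63 it was 1 of 8, NDRG1, against 13.4%. NDRG1 stood at 11.1 FPKM against 5.40 in the control, a log2 fold change of 1.04 (error 0.58, unadjusted p = 0.0109, q = 0.153) per the authors' deposited table. The 95% interval of that value reached from -0.09 to 2.17 with the error from the statistic, and from 0.24 to 1.84 with the error implied by the deposited p.

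The other members, taken by role, gave values that did not pass the test with either hairpin. HIF1A, the oxygen-regulated subunit itself, was at 56.5 against 68.6 FPKM with shRNA63 and at 60.1 against 66.5 FPKM with shRNA95 per the authors' deposited tables. Its log2 fold changes were -0.28 (95% interval -0.82 to 0.26) and -0.15 (-0.68 to 0.39) per the authors' deposited tables. The HIF1A locus in these tables also holds SNAPC1 and 3 other genes, so its value can include their reads. EGLN1, the main oxygen sensor, was at 48.8 against 46.5 FPKM with shRNA63 and at 36.9 against 45.0 FPKM with shRNA95 per the authors' deposited tables. The intervals of its log2 fold change, -0.77 to 0.91 and -1.12 to 0.55, leave room for changes of more than 1.5-fold in either direction with shRNA63 and downward with shRNA95.

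Among the secreted factors, VEGFA was at 78.6 against 64.6 FPKM with shRNA63 and at 68.4 against 62.6 FPKM with shRNA95 per the authors' deposited tables. Its errors were wide for so abundant a gene, 0.52 and 0.51, and its log2 fold changes of 0.28 and 0.13 per the authors' deposited tables lay well inside them. ADM was at 0.228 against 0.0491 FPKM with shRNA63 and at 0.137 against 0.0475 FPKM with shRNA95 per the authors' deposited tables. Both shRNA values are the larger ones, but the authors tested neither, and no fold is given at such levels.

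The 2 mitophagy receptors, BNIP3 and BNIP3L, gave values on opposite sides of the control. BNIP3 was at 18.8 against 15.7 FPKM with shRNA63 and at 16.5 against 15.2 FPKM with shRNA95 per the authors' deposited tables. Its log2 fold changes there were 0.26 (95% interval -0.26 to 0.79) and 0.11 (-0.41 to 0.64). BNIP3L was at 35.1 against 47.5 FPKM with shRNA63 and at 33.4 against 46.1 FPKM with shRNA95 per the authors' deposited tables, or 73.8% and 72.5% of control. Its log2 fold changes were -0.44 (95% interval -0.95 to 0.07, q = 0.410) and -0.46 (-0.97 to 0.04, unadjusted p = 0.0432, q = 0.376) per the authors' deposited tables. The difference between the 2 receptors was not tested.

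P4HA1 was at 35.0 against 42.7 FPKM with shRNA63 and at 37.8 against 41.3 FPKM with shRNA95 per the authors' deposited tables, with log2 fold changes of -0.29 and -0.13. ANKRD37 was at 1.90 against 1.87 FPKM and at 1.77 against 1.82 FPKM per the authors' deposited tables. Its 95% intervals, -1.57 to 1.62 and -1.57 to 1.49, were wide enough to hold a change as large as that of NDRG1. ANKRD37 shares its locus with UFSP2, which was at 1 FPKM or more.

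As a list, the members were centred near 0. The median of log2((FPKM + 1)/(FPKM + 1)) over the 8 measured members was 0.042 with shRNA63, where 5 were positive, and -0.076 with shRNA95, where 3 were positive. Over all measured genes the median was 0.0087 and 0.032, with 51.1% and 54.0% of ratios positive. Both comparisons use the same control libraries, so their values are given side by side and are not 2 separate observations. ADM and EGLN3, which are not measured, are not part of these medians.

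**Figure D3:**
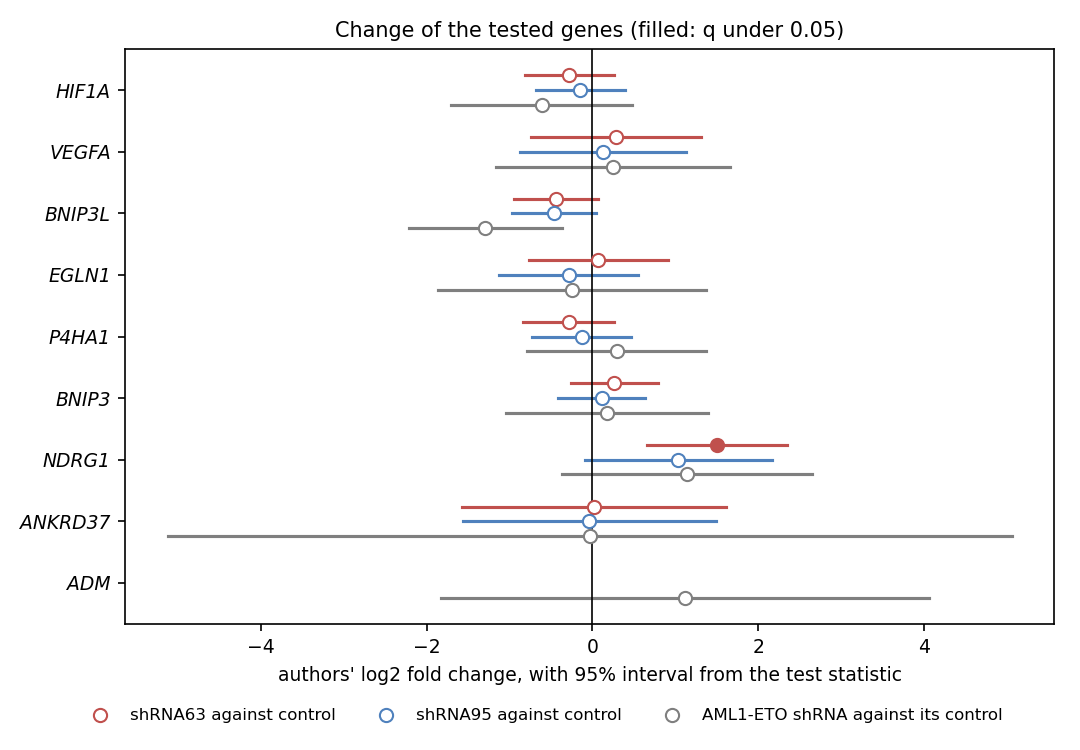
Authors' log2 fold change of each tested member with its 95% interval, for shRNA63 (red), shRNA95 (blue) and the AML1-ETO shRNA (grey); filled circles have q under 0.05. Only NDRG1 with shRNA63, at 1.505, is filled, and the intervals of the grey comparison, which has 1 library a group, are the widest for each gene.

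The hairpins were then compared directly, as the difference of the 2 log2 fold changes divided by their combined error (the square root of the sum of squares), adjusted over 13870 genes by the Benjamini-Hochberg method. No member of 8 differed, at an adjusted or an unadjusted p under 0.05, where 1.08% and 5.44% of all genes did by this normal approximation. The largest difference (shRNA63 minus shRNA95) was that of NDRG1, 0.47, with a 95% interval from -0.95 to 1.88. The call of NDRG1 with shRNA63 alone is thus no sign that the hairpins differ. For BNIP3L the difference was 0.03 (-0.69 to 0.74) and for HIF1A -0.13 (-0.89 to 0.63). The hairpins cannot be said to act alike on these genes either, since each interval spans more than 1 unit on the log2 scale.

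In the AML1-ETO comparison no member of 9 tested was called, against 0.411% of the 22406 genes tested in the authors' deposited table. At an unadjusted p under 0.05 the count was 1 of 9, BNIP3L, against 6.67% of all tested genes. There is no replicate behind this comparison, and its test compares 2 libraries rather than conditions. RUNX1T1, the partner of RUNX1 in the targeted fusion, had a log2 fold change of -1.04 (error 0.87) there, without a call. The authors' deposited table gave BNIP3L a log2 fold change of -1.29 (error 0.47, unadjusted p = 0.0263, q = 0.603). NDRG1 was at 1.14 (error 0.77, q = 0.935) and HIF1A at -0.61 (error 0.56) per the authors' deposited table. ADM was tested only here, with a log2 fold change of 1.12 and an error of 1.503 per the authors' deposited table. The remaining members lay between -0.25 (EGLN1) and 0.29 (P4HA1), and EGLN3 was not tested per the authors' deposited table. The median over the 9 tested members was 0.17, against -0.014 over the 21727 genes with a finite value. The libraries of this table belong to another series, and its FPKM values were not used here.

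Of 21 listed genes of the machinery around HIF1A, 18 were tested with each hairpin. With shRNA63 2 of 18 were called, against 5.12% of all tested genes, and with shRNA95 1 of 18, against 4.4%. CITED2 and CITED4 were called higher with shRNA63, and CITED4 with shRNA95. Both encode proteins that bind the coactivators CREBBP and EP300, and CITED2 competes with HIF1A for them. CITED2 rose with shRNA63, to 216.7 from 135.1 FPKM (log2 fold change 0.68, error 0.24), per the authors' deposited table. With shRNA95 it was at 174.4 against 131.0 FPKM per the authors' deposited table (q = 0.198). CITED4 rose from 5.71 to 9.76 FPKM (q = 0.00554) and from 5.54 to 9.55 FPKM (q = 0.00216) per the authors' deposited tables. The partner ARNT was at 18.2 against 16.5 and at 13.9 against 16.0 FPKM per the authors' deposited tables, without a call. VHL, the recognition subunit for hydroxylated HIF1A, was at 67.2 against 70.3 and at 65.7 against 68.2 FPKM, also without a call per the authors' deposited tables. EPAS1, the HIF-2 subunit, was at 0.0705 against 0.127 and at 0.114 against 0.123 FPKM of the authors' deposited tables and was not tested. The list medians were 0.082 with shRNA63 and 0.15 with shRNA95, and neither includes HIF1A, EGLN1 and EGLN3.

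Of 54 other listed HIF targets, 42 were tested with shRNA63 and 40 with shRNA95. With shRNA63, 2 were called higher and 1 lower, and with shRNA95 2 were called higher and 2 lower. Of all tested genes, 5.12% and 4.4% were called. At an unadjusted p under 0.05 by the authors' Cuffdiff test the counts were 6 of 42 and 13 of 40. The shares over all tested genes were 13.4% and 12.3%. TMEM45A, a membrane protein, rose from 11.7 to 24.3 FPKM with shRNA63 per the authors' deposited table (q = 0.00214). With shRNA95 its log2 fold change was 0.46, without a call. The chemokine receptor CXCR4 rose with both, with log2 fold changes of 1.16 and 2.86 per the authors' deposited tables. DDIT4, an inhibitor of mTORC1, fell with shRNA63, at -1.22, and was at 0.03 with shRNA95, without a call, per the authors' deposited tables. With shRNA95 the cytokine MIF fell from 884.1 to 469.3 FPKM and the cyclin G gene CCNG2 from 19.7 to 11.0 FPKM per the authors' deposited table. Their log2 fold changes with shRNA63 were -0.10 and 0.08, without a call. PLOD1, a lysyl hydroxylase, rose with shRNA95 from 85.0 to 158.1 FPKM per the authors' deposited table (q = 0.0256). With shRNA63 it was at 105.5 against 87.7 FPKM per the authors' deposited table, without a call. The list medians were -0.072 with shRNA63 and 0.028 with shRNA95.

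Of 18 glycolysis genes known as induced by low oxygen, all tested, 1 was called with shRNA63 and 1 with shRNA95. Of all tested genes, 5.12% and 4.4% were called. At an unadjusted p under 0.05 by the authors' Cuffdiff test the counts were 2 and 5 of 18, against 13.4% and 12.3% of all tested genes. LDHA was called lower with shRNA63 and GPI, glucose-6-phosphate isomerase, higher with shRNA95. LDHA, the lactate dehydrogenase subunit A, fell with shRNA63 to 445.6 from 701.3 FPKM per the authors' deposited table (q = 0.0195). With shRNA95 it lay on the other side of the control, at 895.9 against 679.7 FPKM per the authors' deposited table (q = 0.404). GPI rose with shRNA95 from 284.4 to 494.2 FPKM (q = 0.0173) and was at 339.2 against 293.3 FPKM with shRNA63 (q = 0.922), per the authors' deposited tables. The glucose transporter SLC2A3 was at 19.4 against 57.9 FPKM with shRNA63 per the authors' deposited table and just missed the call (q = 0.0537). The list medians were -0.35 with shRNA63, with 14 of 18 ratios negative, and 0.20 with shRNA95, with 11 of 18 positive. Over all measured genes 51.1% of ratios were positive with shRNA63 and 54.0% with shRNA95.

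Relatives of the members in mitophagy and collagen hydroxylation were also counted. Of all tested genes, 5.12% were called with shRNA63 and 4.4% with shRNA95 (2.59% higher). At an unadjusted p under 0.05 by the authors' Cuffdiff test, these shares were 13.4% and 12.3%. Beside the mitophagy receptors, 1 of 15 tested mitophagy genes was called with shRNA63 and none with shRNA95 by the authors' Cuffdiff test (2 at an unadjusted p under 0.05). It was GABARAPL1, an ATG8 protein of the autophagosome, which rose from 1.69 to 4.60 FPKM per the authors' deposited table. Of the collagen and other oxygen-dependent hydroxylases, none of 10 was called with shRNA63 (2 at an unadjusted p under 0.05), and 3 of 9 were called higher with shRNA95 by the same test. These were P4HB, the partner subunit of P4HA1 and protein disulfide isomerase, PLOD1, which with P4HA2 and PLOD2 stands in both this list and that of other targets, and LEPREL2, a prolyl 3-hydroxylase. P4HB rose from 2555 to 6717 FPKM with shRNA95 (q = 0.00216) and was at 4782 against 2636 FPKM with shRNA63 (q = 0.0551) per the authors' deposited tables. LEPREL2 rose from 9.24 to 16.6 FPKM with shRNA95 and was at 8.44 against 9.53 FPKM with shRNA63, without a call there, per the authors' deposited tables. P4HA2, the second catalytic subunit, was at 8.29 against 4.93 and at 7.63 against 4.78 FPKM per the authors' deposited tables, without a call. The list medians were 0.18 with shRNA63 and 0.091 with shRNA95 for the mitophagy genes, and 0.23 and 0.58 for the hydroxylases.

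Ligands and receptors of the families of VEGFA and ADM were on a further list, and ADM itself was not tested with either hairpin. PGF, the placental growth factor, fell with both hairpins, to 1.58 from 4.03 FPKM (shRNA63) and to 1.64 from 3.90 FPKM (shRNA95), per the authors' deposited tables. FLT1, a receptor for both VEGFA and PGF, fell likewise to 8.41 from 15.5 FPKM and to 6.05 from 15.0 FPKM, per the authors' deposited tables. FLT1 was also called lower in the AML1-ETO comparison, at -5.35 per the authors' deposited table. ADM2, a peptide related to adrenomedullin, fell from 1.23 to 0.429 FPKM with shRNA63 and was at 1.89 against 1.19 FPKM with shRNA95 (q = 0.0938) per the authors' deposited tables. The co-receptor NRP1 was called higher with shRNA63 at levels under 1 FPKM, 0.784 against 0.146 per the authors' deposited table. In all, 1 of 9 tested genes of this list was called higher and 3 lower with shRNA63, and 2 of 8 were called lower with shRNA95. Over all tested genes, 2.29% were called higher and 2.83% lower with shRNA63, and 1.82% lower with shRNA95. The medians over its 6 measured genes were -0.49 with shRNA63 and 0.037 with shRNA95.

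In the NDRG family, NDRG1 and NDRG3 were called in opposite directions with shRNA63. Of the 6 listed genes of this family and its partners, NDRG1 not among them, all were tested. With shRNA63 1 of 6 was called, lower, against 2.83% of all tested genes called lower. With shRNA95 it was also 1 of 6, against 1.82%. The medians over the 4 measured genes of the list were -0.25 with shRNA63 and -0.32 with shRNA95. NDRG3 fell to 14.4 from 27.5 FPKM (log2 fold change -0.94, error 0.27), per the authors' deposited table (q = 0.00214). With shRNA95 it was at 21.7 against 26.7 FPKM per the authors' deposited table (q = 0.643). NDRG2 was at 6.10 against 5.96 and at 4.28 against 5.77 FPKM per the authors' deposited tables, without a call. MYC and MYCN, which encode factors known as repressors of NDRG1, were on the same list. MYCN was called lower with shRNA95, from 12.1 to 3.70 FPKM, per the authors' deposited table (q = 0.00216). With shRNA63 it was at 13.4 against 12.5 FPKM per the authors' deposited table, without a call. In the AML1-ETO comparison MYCN was called lower as well, at -3.49 per the authors' deposited table. MYC was at 259.8 against 374.2 FPKM with shRNA63 (q = 0.104) and at 335.4 against 362.8 FPKM with shRNA95 per the authors' deposited tables.

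**Figure D4:**
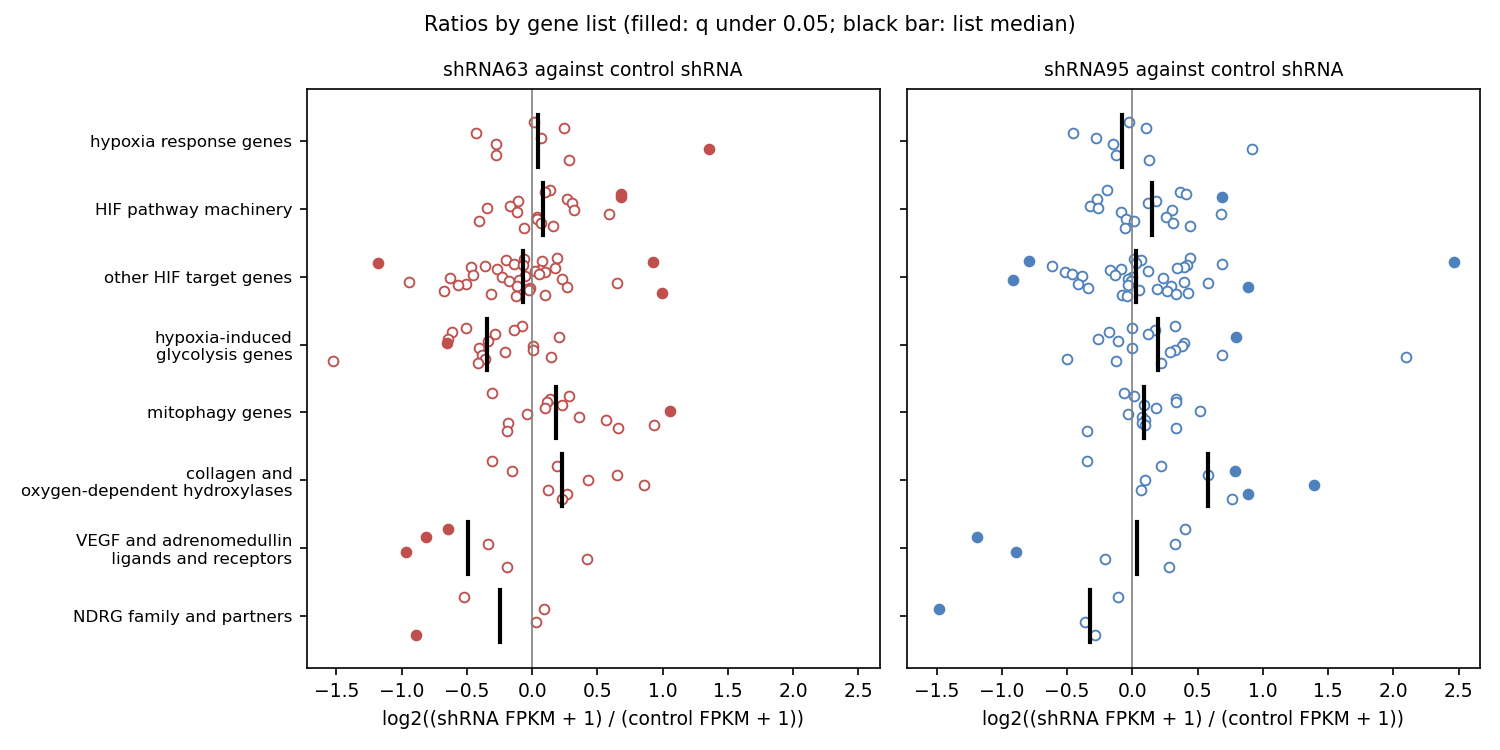
Log2 ratio of every measured gene in each list, with 1 FPKM added to both groups, for shRNA63 (left) and shRNA95 (right); filled circles have q under 0.05 and black bars are list medians. NDRG1, at 1.36, stands apart from the other members with shRNA63, and the hydroxylases have the highest list median with shRNA95, 0.58.

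The gene most like NDRG1 outside the members was NPC2, a cholesterol-binding protein of the lysosome. It had the smallest distance to NDRG1 (0.33) over the 3 log2 fold changes, among 9802 genes tested in all 3 tables with at least 5 FPKM in the controls. NPC2 had log2 fold changes of 1.37 with shRNA63, 0.89 with shRNA95 and 0.87 with the AML1-ETO shRNA per the authors' deposited tables. Its level was far higher than that of NDRG1, at 90.5 against 35.0 FPKM with shRNA63 per the authors' deposited table. Likeness over 3 values, 2 of which share their controls, is a description only.

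The members lie on 7 chromosomes of hg19, with coordinates taken from the tables. VEGFA (ENSG00000112715) is at 43737921 to 43754224 on chromosome 6, EGLN1 (ENSG00000135766) at 231499497 to 231560790 on chromosome 1 and BNIP3 (ENSG00000176171) at 133781578 to 133795435 on chromosome 10. ADM (ENSG00000148926) is at 10326227 to 10328944 on chromosome 11. NDRG1 (ENSG00000104419), at 134249414 to 134314265 on chromosome 8, and the 4 genes just named each have a locus of their own. The other 5 members share a merged locus with 2 to 5 further genes, so reads of overlapping genes can enter their values. These are HIF1A (ENSG00000100644; 62147759 to 62263146) and EGLN3 (ENSG00000129521; 34393437 to 34931980) on chromosome 14, BNIP3L (ENSG00000104765; 26236775 to 26371608) on chromosome 8, ANKRD37 (ENSG00000186352; 186317175 to 186347139) on chromosome 4 and P4HA1 (ENSG00000122884; 74766975 to 74856732) on chromosome 10.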

How the data were processed

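The submitters' processing notes name TopHat2 2.0.8b, Cuffdiff 2.1.1 and the build hg19, with no role or order. Per the file headers, each table holds the columns of a Cuffdiff gene comparison. The authors deposited 1 FPKM value per group, a log2 fold change, a test statistic (a score), and p-values with adjusted q-values. The 2 columns of FPKM in the AML1-ETO table belong to another series and were not used. Depth per library is unknown, since the tables hold no read counts. Converted to a normal deviate, the deposited p was typically (median gene) 1.42 times the size of the statistic for either JMJD1C hairpin, so errors from the statistic are the wider reading. The smallest deposited p is 5e-05. FPKM was compared within a table only. Genes on patch scaffolds were left out of the lists, and the summed level of 1 list of cell type markers is not reported here. Text values are for all 10 members, JMJD1C and called genes of each list, with a few uncalled relatives chosen after their values were seen. In the difference test, errors under the 10th percentile were raised to it. The test assumes independent errors, which are too wide with shared controls. The members and lists were chosen with earlier results of these data known. Alternatives were other thresholds, pseudocounts (1 and 0.1 FPKM), filters and errors. Python 3.11.15, pandas 2.3.3 and scipy 1.17.1 were used.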

Additional observations from a re-analysis of the deposited data

Results flagged for a closer look

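No member differed between the hairpins, but 3 genes of the surrounding lists did (1 of 37 other HIF targets, 1 of 6 ligands and receptors and 1 of 4 genes of the NDRG list, against 1.08% of all 13870 genes), by the direct comparison of their log2 fold changes, adjusted by the Benjamini-Hochberg method over all genes (adjusted p under 0.05). ADM2, the relative of adrenomedullin, differed by -2.19 (shRNA63 minus shRNA95; error 0.54). CXCR4 differed by -1.70 (error 0.42), being higher with both hairpins and more so with shRNA95. MYCN differed by 1.81 (error 0.37), being lower with shRNA95.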

How the results depend on the processing

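Each count of called members was recomputed under the alternatives. NDRG1 remained the 1 call with shRNA63 under every one, among them q thresholds of 0.01 and 0.10. An unadjusted p under 0.05 raised the count from 0 to 2 with shRNA95 and from 0 to 1 in the AML1-ETO comparison, because it drops the adjustment, and the other alternatives left both at 0. The member median ranged from 0.034 to 0.069 with shRNA63 and from -0.13 to -0.013 with shRNA95. No member differed between the hairpins under any choice of error or filter, while the count over all genes went from 150 to 208 with errors scaled to the deposited p, to 297 with no floor on the errors and to 587 with the shared control part removed. Leaving out a replicate could not be run, since the tables hold 1 value per group. No paired analysis was possible because the columns carry no replicate numbers. Adjustment over genes of at least 1 FPKM was not run for the AML1-ETO table, whose FPKM was not used.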

Other observations

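Several histone demethylases and related JmjC enzymes are known HIF targets and belong to the same enzyme class as JMJD1C. KDM3A, its paralog in the KDM3 family, was at 36.4 against 34.0 FPKM with shRNA63 and at 22.7 against 32.9 FPKM with shRNA95 per the authors' deposited tables (q = 0.999 and 0.695). Its log2 fold changes there were 0.10 (95% interval -0.84 to 1.04) and -0.54 (-1.53 to 0.45). KDM4B was at 16.8 against 16.2 and at 11.1 against 15.7 FPKM per the authors' deposited tables (unadjusted p = 0.0215 and q = 0.244 with shRNA95). KDM5C, at 46.9 against 48.6 and 35.8 against 47.1 FPKM, and KDM4C, at 2.79 against 4.20 and 3.62 against 4.07 FPKM, were not called per the authors' deposited tables. JMJD6 was at 21.0 against 20.8 and at 21.9 against 20.1 FPKM, also without a call per the authors' deposited tables. These genes were picked from the list of HIF targets after their values had been seen.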
